A study of Homo sapiens with 4 samples.

Results

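To examine how transcripts named after coding genes differ with miR-335, the antisense and intronic transcripts of an expression array were analyzed. The cells were GIST-T1, a cell line established from a human gastrointestinal stromal tumor (GIST). Members were all probes other than controls whose gene name ends in -AS or -IT with optional digits, which gave 153 of the 36337 gene names on the array (195 of 50599 probes). Of the 153 names, 136 were antisense (178 probes) and 17 were intronic (17 probes). Cells received 100 pmol of a mirVana miR-335 mimic or of the mirVana mimic Negative Control #1 by nucleofection, and RNA was taken 48 h later. There were 2 arrays per group, each hybridized with 1 dye from 100 ng of total RNA, and the labels do not say whether the arrays of a group came from separate cultures, so p-values measure only the spread between these samples. The description of both mimic samples carries a second line that names miR-34a, whereas their title and transfection label name miR-335. PDGFRA, which the paper ties to miR-34a, had a log2 difference (mimic minus control, as for all differences below) of -0.08 in limma (adjusted p 0.354). ZMPSTE24 and EIF5A2, tied to miR-335, fell by 0.86 and 0.84 (limma adjusted p 0.0314 and 0.0351). The paper picked both as predicted targets that fell on its own GIST-T1 arrays with the miR-335 mimic. Their fall is therefore no independent check of the label.

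An antisense transcript is copied from the strand opposite to a coding gene, whether it overlaps the gene or starts near its promoter. An intronic transcript is named for a sequence inside an intron of its host and commonly shares the host's strand, so an array probe for it can also bind unspliced host RNA. Some such RNAs are known to act on the neighboring gene or to bind microRNAs, and most have no described function. A mature microRNA guides Argonaute to matches of its seed in other RNAs.

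The probe sequences behind the values below are shown because each decides what RNA a value can come from. All are 60 bases long and are written in the direction of the target RNA, with the only match to AATAAA, the poly(A) signal hexamer, in capitals where a probe holds one. The mature miR-335-5p (RefSeq, GRCh38.p14, chromosome 7) is given first, with its seed, bases 2 to 8, in capitals.
hsa-miR-335-5p: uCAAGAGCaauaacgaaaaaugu
ZNF638-IT1: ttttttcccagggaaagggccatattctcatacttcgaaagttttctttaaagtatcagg
CLTC-IT1: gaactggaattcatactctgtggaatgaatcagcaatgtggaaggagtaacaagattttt
FOXP1-IT1: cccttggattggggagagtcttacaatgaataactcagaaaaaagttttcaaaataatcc
AGPAT4-IT1: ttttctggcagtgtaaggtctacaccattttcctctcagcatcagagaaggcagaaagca
ZEB1-AS1, first probe: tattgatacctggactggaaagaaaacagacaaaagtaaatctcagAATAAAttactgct
ZEB1-AS1, second probe: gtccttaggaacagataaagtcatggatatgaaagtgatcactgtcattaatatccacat
FBXO22-AS1: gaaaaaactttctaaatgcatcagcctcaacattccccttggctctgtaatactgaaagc
HNRNPU-AS1: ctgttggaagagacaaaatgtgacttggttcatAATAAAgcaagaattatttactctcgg
MAST4-AS1: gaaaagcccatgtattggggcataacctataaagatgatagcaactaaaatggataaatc

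On hg19, as the array files give it, these probes lie at chr2:71604061-71604120 (plus strand) for ZNF638-IT1, chr17:57708971-57709030 (plus) for CLTC-IT1, chr3:71619482-71619541 (minus) for FOXP1-IT1 and chr6:161581337-161581396 (minus) for AGPAT4-IT1. The ZEB1-AS1 probes lie at chr10:31605467-31605526 and chr10:31605731-31605790 (both minus), that of FBXO22-AS1 at chr15:76225220-76225279 (minus), that of HNRNPU-AS1 at chr1:245003941-245004000 (minus) and that of MAST4-AS1 at chr5:66297462-66297521 (minus). Exons and introns of that build were not used here. AATAAA, searched on the target strand alone, was held by 27 of the 195 member probes (13.8%), against 7.88% of all probes on the array. The match to bases 2 to 8 of miR-335-5p (GCTCTTG) was in 0 member probes and in 0.437% of all probes. The match to bases 2 to 7 followed by A (CTCTTGA) was in the probes of FBXL19-AS1, GCFC1-AS1 and ZNF32-AS3, against 0.464% of all probes. A probe covers a small part of its transcript, so these counts say nothing of sites elsewhere in it.

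Most of the members, like most probes on the array, were at or near background in these cells. Per array, 64 to 73 of the 195 member probes (32.8% to 37.4%) exceeded background clearly by the scanner software's flag (well above background), against 40.3% to 41.9% of all probes. Of the member probes 111 (56.9%) were so on no array, against 54.8% of all probes. Testing required a value on all 4 arrays and that flag on both arrays of either group, which 67 member probes of 53 genes passed (45 antisense, 8 intronic genes). The other 128 probes were well above background on 0 arrays (111 probes), 1 array (12), 2 arrays (4) or 3 arrays (1), and 100 genes had no tested probe. The exception among them was ZNFX1-AS1, now named ZFAS1, a host of small nucleolar RNAs. Its normalized signal (log2, relative to the array's 75th percentile, as for all levels below) was 7.34 and 7.37 with the mimic and 7.38 on control array 2, and its spot on control array 1 was removed as an outlier by the scanner software, so it was not tested.

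Among the tested members, 4 of 67 probes passed a limma adjusted p of 0.05, 2 lower and 2 higher with the mimic, where 2.62% of all 20328 tested probes passed. None of the 4 passed when any array was left out (limma adjusted p 0.127 to 0.196 for these probes), although each kept its direction. By fold alone, 11 member probes were more than 1.5-fold higher and 1 was more than 1.5-fold lower, against 2.43% and 1.47% of all tested probes. Of the 11, 5 were well above background on neither control array and so entered the test through the mimic arrays alone, and MAST4-AS1 rests on 1 spot. With detection on all 4 arrays 5 of 59 member probes, MAST4-AS1 included, were more than 1.5-fold higher, against 1.43% of all such probes. Between the mimic arrays 3 member probes differed by more than 1.5-fold, and between the control arrays 6 did. Past 2-fold were 7 member probes, against 1.1% of all tested probes. Among the 7 were MAST4-AS1 and, with dim control arrays, CLTC-IT1, ZNF638-IT1, ASAP1-IT1 and PPP2R3B-AS1. The bounds of ZNF638-IT1 (1.83-fold), ASAP1-IT1 (1.39-fold) and PPP2R3B-AS1 (1.72-fold) are below 2-fold. Members are dim, and 4.82% of the 6430 tested probes with a level between -2.09 and 0.21, the interquartile range of the members, were past 1.5-fold in either direction; of the 33 members there, 4 were higher and 1 was lower. The median difference of the 67 probes was 0.09 on the log2 scale, against -0.01 for all tested probes. Scaling to external spike-in probes moved every difference by -0.19, which put the member median at -0.10 and that of all probes at -0.20.

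**Figure D1:**
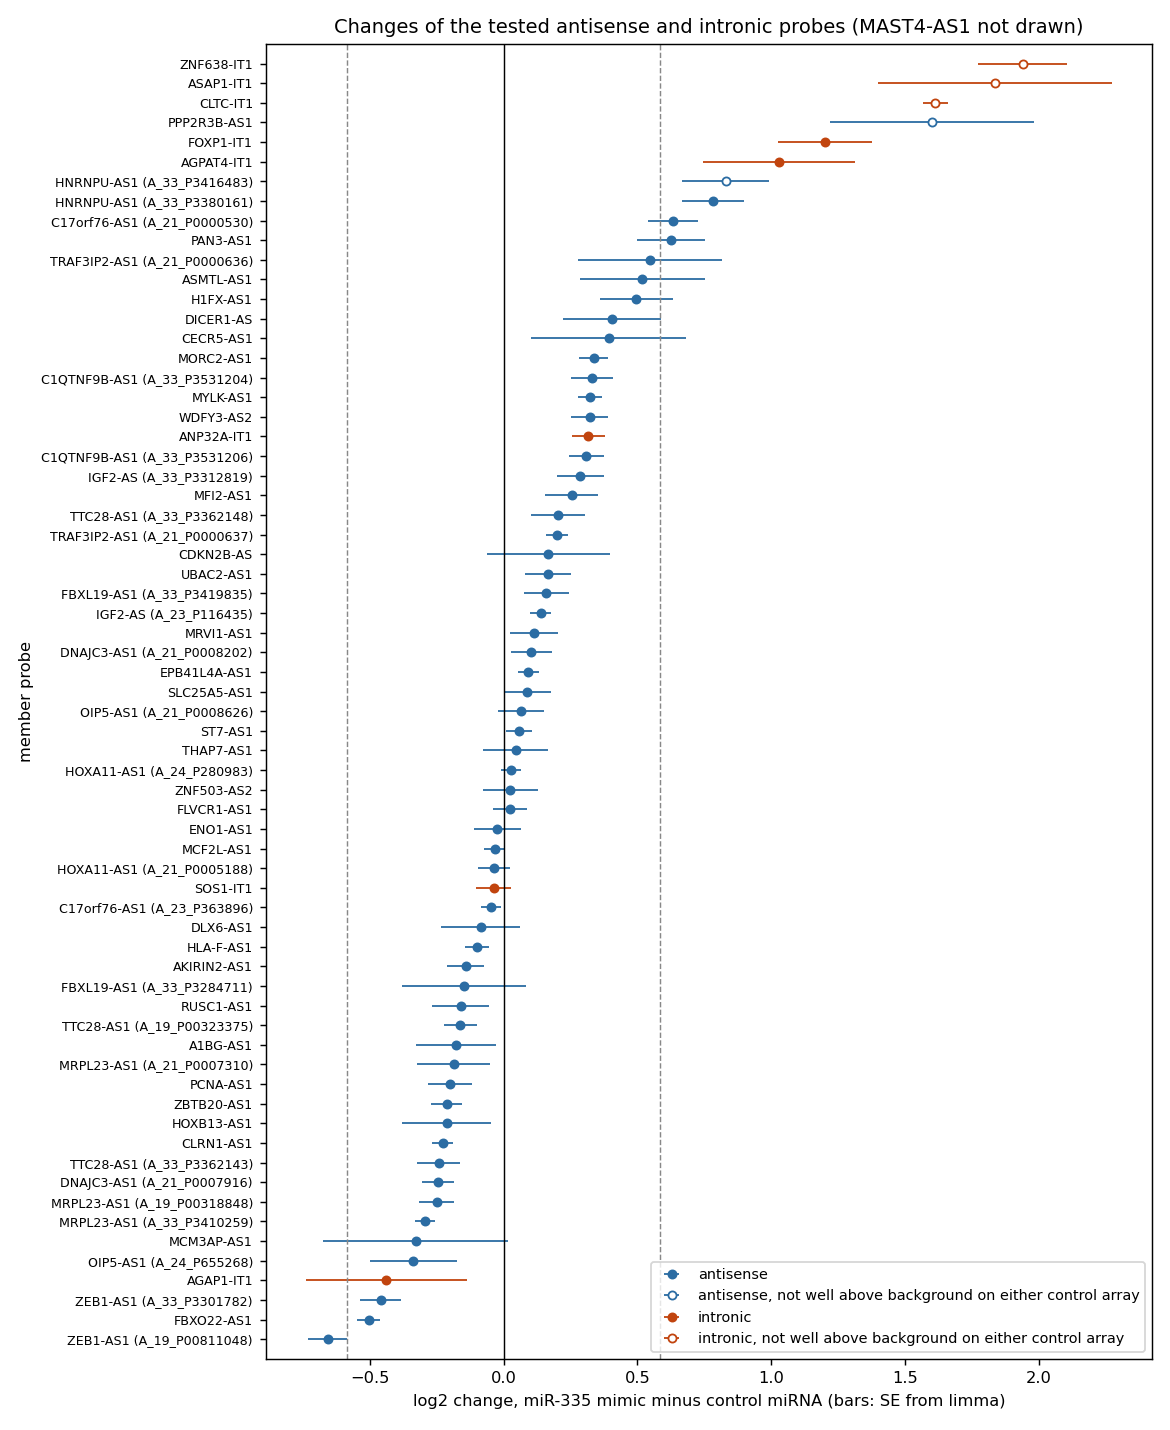
Change of each tested member probe (log2, miR-335 mimic minus control miRNA; bars are SE from limma; dashed lines mark 1.5-fold; MAST4-AS1 is not drawn because 1 array decides its value). Intronic probes (orange) take 5 of the 6 highest places. The open symbols are probes not well above background on either control array, whose plotted size can exceed the bound.

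The intronic transcripts held the largest rises. Of the 8 with a tested probe, 5 were more than 1.5-fold higher with the mimic, 0 were lower by as much, and 2 passed the adjusted threshold, where 1.47% of all tested probes passed as higher. The mimic arrays were above both control arrays for 6 of the 8, against 27.1% of all tested probes. With any 1 array left out, the same 5 were past 1.5-fold, but these runs kept the main detection filter. For the 3 probes described next, that is no independent check. Of the 8 probes, 3 passed the detection filter through the mimic arrays alone and so had to differ, among them both that passed the threshold: on the whole array 171 tested probes had dim controls in this way, and 139 of them (81.3%) were more than 1.5-fold higher. With well above background required on all 4 arrays, 2 of 5 intronic probes were more than 1.5-fold higher and 0 of 5 passed the threshold (limma). Under another background correction (normexp), 2 of 8 were past 1.5-fold, while 6 of 8 passed the threshold (limma). Among the 6 were FOXP1-IT1, ASAP1-IT1, ANP32A-IT1 and AGPAT4-IT1, each of which also passed with an intensity trend. The share of all tested probes called under these settings is not given here. The bounds given below hold for the main background correction and not under normexp, where CLTC-IT1 was at 0.63 and ZNF638-IT1 at 0.53 (limma adjusted p 0.00163 and 0.00399).

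CLTC-IT1 is named after the clathrin heavy chain gene, whose product coats endocytic vesicles. Its levels were -1.33 on both mimic arrays and -2.98 and -2.90 on the control arrays. Neither control array was well above background, so the difference is a bound, at least 3.03-fold higher with the mimic. The limma adjusted p of 0.0314 belongs to the measured difference of 1.61 and not to the bound. The probe entered the test through the mimic arrays alone, so this p and the gap between the groups are no independent support. ZNF638-IT1, from the gene of a zinc finger protein that binds nucleic acids, had levels of -2.40 and -2.004 with the mimic and -4.05 and -4.24 in the control. Its control arrays were dim too, and it was at least 1.83-fold higher. The same limit holds for its limma adjusted p of 0.0390, which belongs to the measured difference of 1.94. ASAP1-IT1, from a gene of an ArfGAP, rested on dim control arrays as well, with levels of -2.52 and -2.68 against -5.02 and -3.85. That is at least 1.39-fold, and it did not pass the threshold (limma adjusted p 0.125).

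FOXP1-IT1 and AGPAT4-IT1 were well above background on all 4 arrays. FOXP1-IT1, named after a forkhead transcription factor gene, had levels of -0.16 and -0.39 with the mimic and -1.27 and -1.68 in the control. The groups were apart by more than either differed within itself, a difference of 1.20 ± 0.18 (SE, n = 2 per group) with a limma adjusted p of 0.0713. AGPAT4-IT1, from a gene of phosphatidic acid synthesis, had levels of -1.30 and -1.75 against -2.86 and -2.25. The difference was 1.03 ± 0.28 (SE), and the control arrays differed between themselves by more than the gap to the mimic arrays (limma adjusted p 0.149). ANP32A-IT1, the brightest of the 8, had levels of 3.13 and 3.14 against 2.89 and 2.75, a difference of 0.32 ± 0.06 (SE) with no overlap (limma adjusted p 0.101).

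The remaining tested intronic transcripts were not higher. SOS1-IT1, from the gene of a Ras activator, had a difference of -0.04 ± 0.06 (SE), and its arrays overlapped. AGAP1-IT1 had levels of -0.41 and -0.65 with the mimic and 0.30 and -0.47 in the control, which overlapped. The other 9 of the 17 were not tested: 8 (BRWD1-IT2, CPS1-IT1, FGF14-IT1, ITPKB-IT1, KCNIP4-IT1, KIRREL-IT1, MAGI2-IT1 and SLIT2-IT1) were well above background on no array, and ANKRD10-IT1 was so on 1 array of each group.

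The tested probes of the host genes did not show these differences. On their brightest tested probes the 8 hosts had differences of -0.24 to 0.12, and 0 passed the threshold (limma; no host was past 1.5-fold). FOXP1 had levels of 6.19 and 6.23 with the mimic and 6.31 and 6.29 in the control, and its 3 tested probes had differences of -0.21 to -0.07. ZNF638 had levels of 1.77 and 1.72 against 1.82 in both control arrays. For both genes the mimic arrays were slightly below the control arrays while the intronic probe was above them. All 8 intronic probes lie on the strand of their host's probe, between 2.77 and 617 kb from it, and on these brightest host probes the difference of each had the sign opposite to the host's. Another tested probe of AGAP1 (-0.34), AGPAT4 (0.16) and SOS1 (-0.09) shared the sign of its intronic probe. Host differences this small are near the error, as in SOS1, at 0.05 ± 0.04 (SE). Some hosts were dim: CLTC, on its only tested probe, had a mean level of -1.62, and SOS1 had -1.54 on its brightest.

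**Figure D2:**
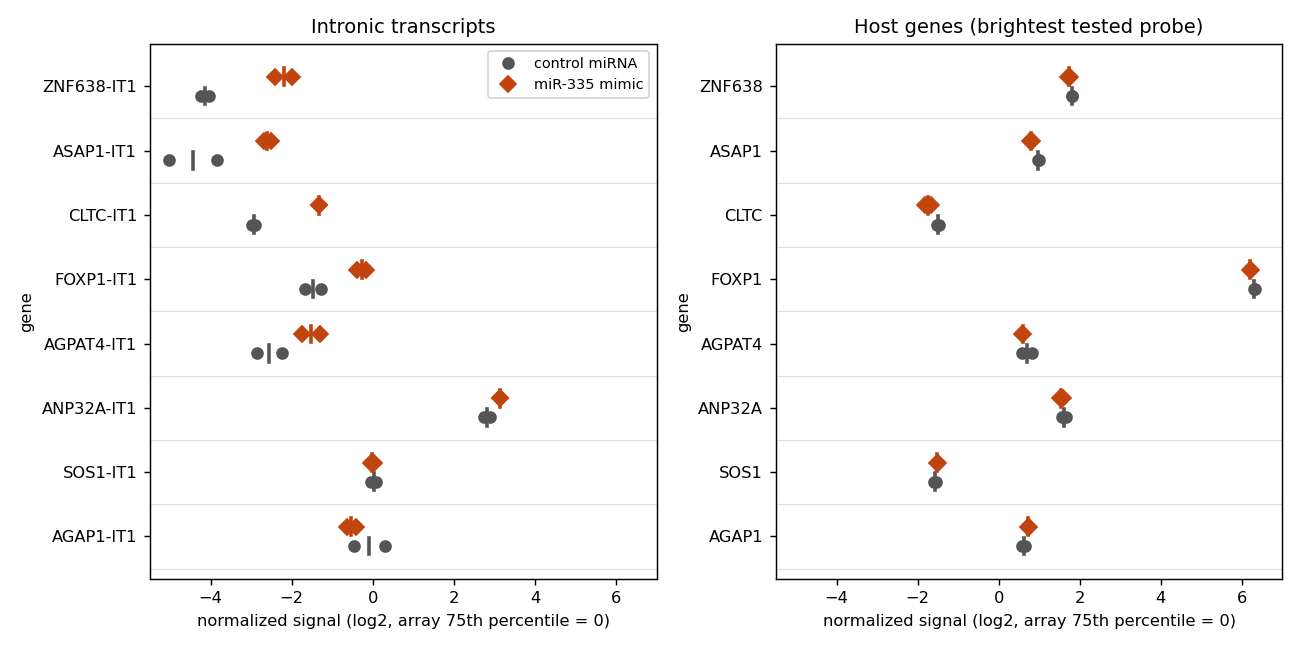
Normalized signal (log2) of the 8 tested intronic probes (left) and of their host genes (right) on each array, with group means as vertical bars. The mimic arrays (diamonds) lie to the right of the control arrays (circles) for 6 intronic probes. The brightest tested host probes differ by no more than 0.24 between group means. Levels of different probes are not comparable.

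Among the antisense transcripts, 2 of 59 tested probes passed the threshold, both lower, where 1.15% of all tested probes were called lower. The median difference of the 59 was 0.06. ZEB1-AS1, transcribed away from the promoter of ZEB1, a transcription factor of the epithelial to mesenchymal transition, was lower on both of its probes. The first probe had levels of -1.60 and -1.45 with the mimic and -0.83 and -0.90 in the control, a difference of -0.66 ± 0.07 (SE, limma adjusted p 0.0492). The second probe had -1.97 and -1.84 against -1.51 and -1.38, a difference of -0.46 ± 0.08 (SE, limma adjusted p 0.0824). Both control arrays were above both mimic arrays on each probe, and only the first one passed. Its call was lost on the value table (limma adjusted p 0.051) and with robust eBayes (limma adjusted p 0.0538), and its difference was -0.27 under normexp (limma adjusted p 0.0205). ZEB1 itself had a difference of -0.07 ± 0.05 (SE) on its brightest probe and of -0.23 on its other tested probe. FBXO22-AS1, opposite the gene of a ubiquitin ligase F-box protein, had levels of -2.64 and -2.59 against -2.13 and -2.09. The fall was larger than the spread within either group, -0.50 ± 0.04 (SE, limma adjusted p 0.0388), and FBXO22 had a difference of 0.05 ± 0.04 (SE). Under normexp the FBXO22-AS1 difference was -0.09 (limma adjusted p 0.279), and with an intensity trend its limma adjusted p was 0.128.

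On the side of higher values, HNRNPU-AS1 had 2 probes with like values, neither of which passed. The probe shown above had levels of -1.01 and -1.09 with the mimic and -1.70 and -1.98 in the control, a difference of 0.78 ± 0.12 (SE, limma adjusted p 0.0719). The other, with levels of -2.04 and -2.05 against -2.66 and -3.09, was well above background on neither control array and had a measured difference of 0.83 ± 0.16 (SE, limma adjusted p 0.101). Both probes lie on the strand of HNRNPU, which encodes a nuclear matrix protein that binds RNA, and the RefSeq table now lists the name under HNRNPU itself, so they are antisense by name only. The brightest HNRNPU probe had a difference of -0.0011 ± 0.05 (SE), and the other tested HNRNPU probe was at 0.12. PPP2R3B-AS1, now LINC00685, from the pseudoautosomal region, had levels of -2.27 and -2.31 against -4.40 and -3.38, at least 1.72-fold higher from dim control arrays (limma adjusted p 0.125). Under normexp its difference was 0.46. PAN3-AS1, opposite a subunit gene of a poly(A) nuclease, was well above background on 1 of 2 control arrays and had a difference of 0.62 ± 0.13 (SE, limma adjusted p 0.104).

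The brightest tested antisense transcripts had small differences. C17orf76-AS1, now SNHG29, a host of small nucleolar RNAs, had levels of 6.46 and 6.44 with the mimic and 6.50 and 6.49 in the control on its brighter probe. Its other probe, with -0.79 and -0.55 against -1.32 and -1.29, was higher with the mimic by 0.63 ± 0.095 (SE, limma adjusted p 0.0724), so the probes of this gene disagree. EPB41L4A-AS1, another small nucleolar RNA host, had a difference of 0.09 ± 0.04 (SE). HLA-F-AS1 was at -0.10 ± 0.04 (SE). IGF2-AS, from an imprinted locus, was at 0.14 ± 0.04 (SE) on its brighter probe, and HOXA11-AS1, of the HOXA cluster, at 0.03 ± 0.04 (SE) on its own. None of these 5 genes passed the threshold (limma), and under spike-in scaling all 5 brighter probes had a negative sign. In all, 12 antisense genes had more than 1 tested probe, and those of OIP5-AS1, TTC28-AS1, DNAJC3-AS1, FBXL19-AS1, HOXA11-AS1 and C17orf76-AS1 differed in sign.

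**Figure D3:**
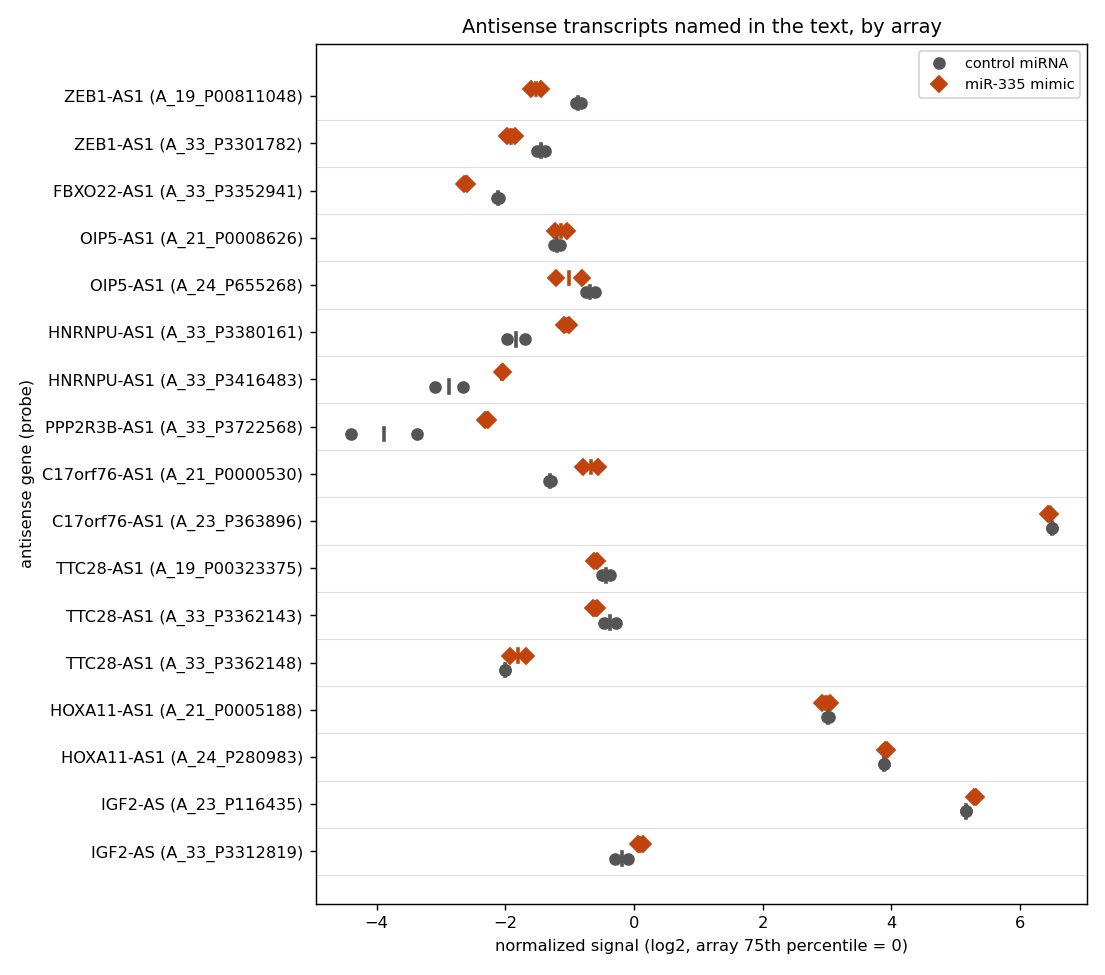
Normalized signal (log2) of 17 probes of 9 antisense genes on each array, with group means as vertical bars. The ZEB1-AS1 and FBXO22-AS1 mimic arrays (diamonds) lie left of the control arrays (circles), the HNRNPU-AS1 and PPP2R3B-AS1 mimic arrays lie right of them, and the TTC28-AS1 and OIP5-AS1 probes do not share 1 direction.

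A list of 56 names with a described function was made for this work, with some genes under several spellings. By exact name 21 were on the array and 9 were tested. Past the threshold (limma), 1 of 14 probes was lower (ZEB1-AS1) and 0 were higher, where 1.15% and 1.47% of all tested probes were. The listed CDKN2B-AS1 is on the array as CDKN2B-AS and is not in these counts. The difference of its tested probe was 0.17 ± 0.23 (SE, limma adjusted p 0.679). OIP5-AS1, known for its site for miR-7, had differences of -0.34 ± 0.16 (SE) on one probe and of 0.07 ± 0.09 (SE) on the other. Differences were -0.33 ± 0.345 (SE) for MCM3AP-AS1, -0.20 ± 0.08 (SE) for PCNA-AS1, -0.09 ± 0.15 (SE) for DLX6-AS1 and 0.06 ± 0.05 (SE) for ST7-AS1. Of the 12 untested ones 8 were well above background on no array, and the 12 included TP73-AS1, WT1-AS, BDNF-AS1 and GNAS-AS1. The HOX transcripts on the array were HOXA11-AS1 and HOXB13-AS1, and neither passed. HOXB13-AS1 is now PRAC2, listed as protein-coding in the RefSeq table.

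The comparison of each member with the gene it is named after covered 64 member probes of 50 genes with a tested partner, all of the partners protein-coding in the RefSeq table. The partners of CDKN2B-AS, CLRN1-AS1 and MFI2-AS1 were not tested. No partner passed the threshold (limma) or 1.5-fold, and partner differences ran from -0.47 to 0.37. The differences of member and partner had the same sign in 27 pairs and opposite signs in 37. They were apart by more than 1.5-fold in 14 pairs, with the member above the partner in 13 and below it in 1. Across the 64 pairs, which share arrays and in part probes, Pearson's r was -0.15 and Spearman's rho was -0.09, and without the MAST4-AS1 pair they were -0.005 and -0.06. Requiring both probes well above background on all 4 arrays left 56 pairs, of which 7 were more than 1.5-fold apart.

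The probe pair lay on opposite strands in 53 cases and on the same strand in 11, those of the 8 intronic transcripts, HNRNPU-AS1 and AKIRIN2-AS1. In 7 of the 11 same-strand pairs and 7 of the 53 opposite-strand pairs member and partner were more than 1.5-fold apart. Of the 7 same-strand pairs, 4 had a member that entered the test through the mimic arrays alone. With both probes well above background on all 4 arrays the counts were 3 of 7 same-strand pairs (FOXP1-IT1, AGPAT4-IT1 and 1 probe of HNRNPU-AS1) and 4 of 49 opposite-strand pairs. These shares were not tested against each other. Of the pairs detected on all 4 arrays, the widest gaps on the log2 scale, in addition to MAST4-AS1, were those of FOXP1-IT1 (1.29), AGPAT4-IT1 (1.14), HNRNPU-AS1 (0.78) and TTC28-AS1 (0.67 on 1 of its 3 probes). TTC28 was lower by its brightest probe, with levels of 1.93 and 2.13 against 2.48 and 2.52, a difference of -0.47 ± 0.08 (SE, limma adjusted p 0.0881). Ranked by the smaller of the 2 differences where both had the same sign, the leading pair was C1QTNF9B-AS1, now PCOTH, at 0.33 and 0.31 on its probes, and C1QTNF9B, a secreted C1q-related protein gene, at 0.37 ± 0.06 (SE). Next came TTC28-AS1 with TTC28 (-0.24 and -0.47), DNAJC3-AS1 with DNAJC3 (-0.25 and -0.19) and CECR5-AS1 with CECR5 (0.39 and 0.17). Other tested probes had the opposite sign: TTC28 at 0.06, TTC28-AS1 at 0.20 and DNAJC3-AS1 at 0.10. The groups of CECR5-AS1 overlapped (limma adjusted p 0.456).

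**Figure D4:**
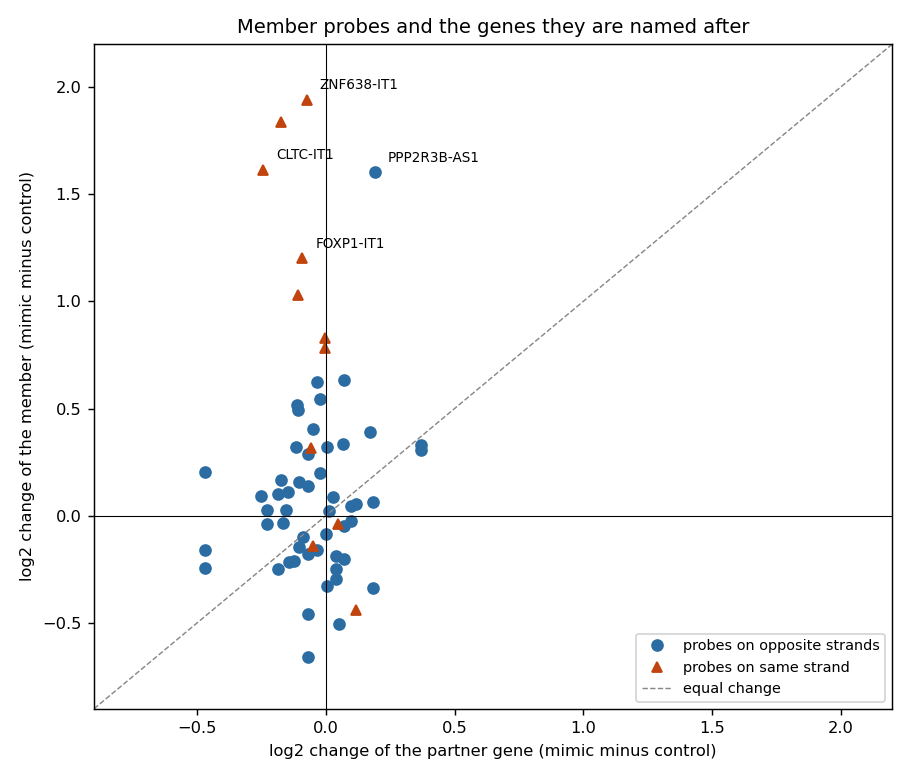
Change of each member probe (log2, mimic minus control, vertical) against that of its partner gene (horizontal) in 63 pairs, MAST4-AS1 left out; the dashed line marks equal values. Partners stay between -0.47 and 0.37 while members reach 1.94, and 7 of the 11 same-strand pairs (triangles) differ by more than 1.5-fold, 4 of them with a member dim on both control arrays.

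One array decided the largest value of all. MAST4-AS1 had a level of 9.42 on mimic array 1 but -2.34 on mimic array 2, and -1.97 and -1.95 on the control arrays. Only mimic array 1 was high, and the remaining arrays put its difference at -0.38 (limma adjusted p 0.195). The spot carried no outlier flag. Within 5 rows and 4 columns of it, 5 other spots were also more than 16-fold brighter on mimic array 1 than the median of the other arrays, all of them in its own or the adjoining column. On that array 0.191% of all spots were so bright. A patch of 11 rows by 5 columns elsewhere on the slide had been named beforehand for a check of bright spots. In it, 34 of 52 spots (65.4%) were more than 16-fold bright on mimic array 1 and 0 were so on any other array. Because the patch was chosen for this check, that share is not an independent result. None of the 204 member spots lay in that patch. Leaving the patch out gave 4 member probes past the threshold and 12 past 1.5-fold. Single spots were also bright against the median of the other arrays for PCBP1-AS1 (by 4.28 on the log2 scale, mimic array 2), ARAP1-AS2 (3.66, control array 1) and the dimmer HLA-F-AS1 probe (3.50, control array 1), and these probes were not tested.

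**Figure D5:**
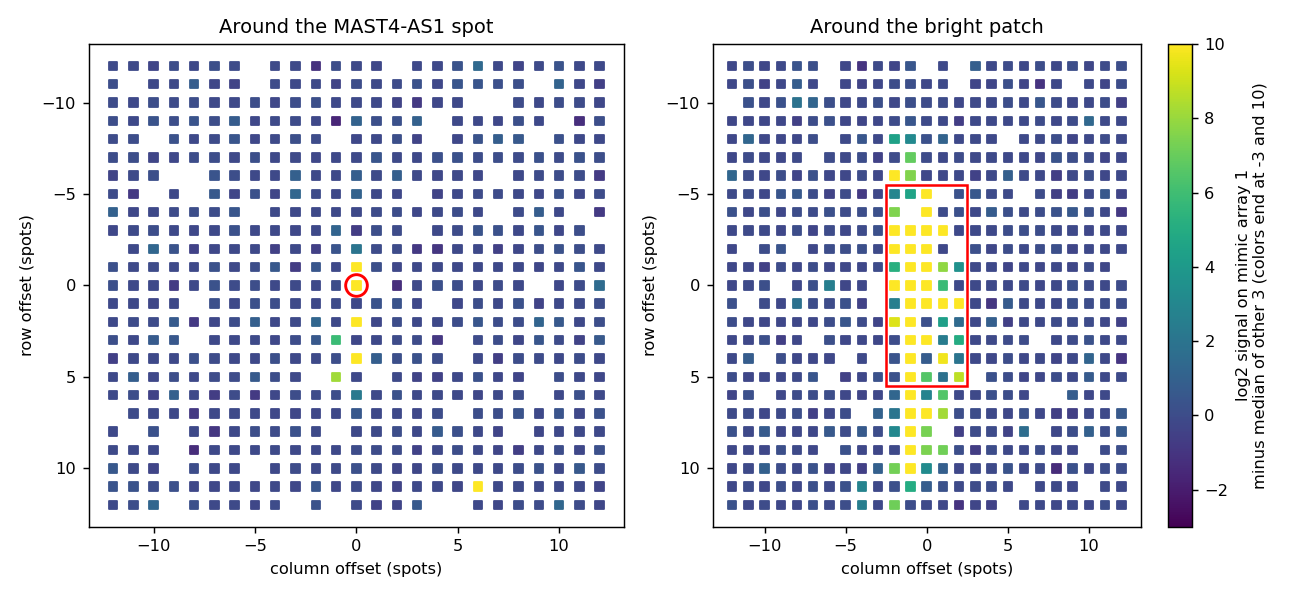
Log2 signal of single spots on mimic array 1 minus the median of the other 3 arrays (color), by row and column offset in spots, around the MAST4-AS1 spot (circle, left) and the bright patch (rectangle, right); gaps are control spots. Bright spots line up in the column of MAST4-AS1, and 34 of 52 spots in the patch are more than 16-fold bright.

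The genes of the machinery that degrades nuclear RNA or binds double-stranded RNA were examined beside the members. Of 36 listed genes 32 were tested, and 1 of their 41 probes passed the threshold, where 2.62% of all tested probes did. It was that of STAU1, which binds double-stranded RNA and takes part in RNA decay. Its log2 level fell by 0.74 ± 0.04 (SE), with a limma adjusted p of 0.0314. The exosome nuclease EXOSC10 was at -0.01 ± 0.04 (SE), the adenosine deaminase ADAR at -0.01 ± 0.05 (SE) and DICER1 at -0.05 ± 0.05 (SE), while DICER1-AS was at 0.40 ± 0.18 (SE, limma adjusted p 0.273). The median of the 32 genes was 0.01.

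All 6 listed markers of gastrointestinal stromal tumors, KIT, ANO1 and PDGFRA among them, were tested. That shows detection alone. In the control, mean levels on the brightest probes were 7.49 for KIT, 5.98 for PDGFRA and 6.51 for the epithelial gene KRT18, though levels of different probes are not comparable. Of markers of other cell types, 0 of 3 endothelial and 0 of 3 glial genes were tested, against 2 of 4 leukocyte, 2 of 4 smooth muscle and 3 of 4 epithelial genes, and none of these passed the threshold (limma). All 4 arrays were on 1 slide, the controls beside each other and the mimics beside each other, so position on the slide and group cannot be told apart. For any single value, the smallest two-sided p that exact permutation of 2 against 2 arrays allows is 0.333.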

How the data were processed

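Expression was measured on a 1-color Agilent human array in GIST-T1 cells with a miR-335 mimic or control miRNA, 2 arrays per group. The spot intensity values that the authors deposited came from Agilent Feature Extraction 10.7 and were already corrected for background and spatial trend, not between arrays. In the series value table, which holds the same intensity rounded, 0 columns lacked a sample. Each array had 62976 spots. Spots flagged as outliers were left out (356 to 395 per array), log2 values of replicate spots were averaged, and each array's 75th percentile was subtracted. A probe was well above background when at least 0.5 of its spots carried that flag.

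The comparison used lmFit and eBayes of limma 3.58.1 (R 4.3.3), without covariates, over all 20328 tested probes, with Benjamini-Hochberg adjustment at 0.05. The step was tested on simulated data. No test was made for the 1.5-fold criterion, medians or pairs. A partner was the gene named before the hyphen, on its brightest tested probe. For a probe well above background on neither array of a group, a bound was computed. On each such array it used the higher of the probe's own level and the lowest level well above background. For the second HNRNPU-AS1 probe the bound equals the measured difference. The number of arrays limits the precision.

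Named were all members past the threshold, tested members of the 2 lists (described function, HOX), the 5 widest pairs and the 5 with the largest shared difference (the smaller of the 2, same sign), detected on all 4 arrays, bounded members over 1.5-fold, members with a spot in the patch, the 5 brightest, those with a seed match, and machinery genes past the threshold with up to 6 others; genes outside this rule (among them ZNFX1-AS1, PAN3-AS1 and the other intronic transcripts) were chosen after their values were seen. Members and lists were chosen with earlier results of these data known. Alternatives were background correction, normalization, filters, spot removal, the test, single arrays left out and, chosen after seeing the data, spike-in scaling (7 probes) and removal of single bright spots. Of the 153 names, 143 matched a symbol or older name in the RefSeq table (GRCh38.p14), whose coordinates were not used. That table lists 127 of the matches as long noncoding RNA and 4 as protein-coding. Figures were drawn with matplotlib 3.10.9.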

Additional observations from a re-analysis of the deposited data

How the results depend on the processing

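The count of 4 member probes past the limma threshold depended on the test and the filter. It was 15 with normexp (3 lower, 12 higher), 17 with an intensity trend (3 lower, 14 higher) and 23 with spike-in scaling (17 lower, 6 higher). With detection required on all 4 arrays it was 2. It was 0 with no filter or with the methods' t-test after Benjamini-Hochberg adjustment (17 unadjusted). The shares of all tested probes called under these settings are not given here, so the counts are not a result about the members. Spike-in scaling moved every difference by -0.19, for members and all other probes alike. With single arrays left out it was 0 to 1; the 1 was MAST4-AS1 without mimic replicate 2, where the lone array is assumed to vary like the other group. With the replicate number as a block it was 0; replicate differences correlated by only 0.035 between groups, so the numbers do not pair the arrays. All arrays share 1 slide and scan, so no block for slide or scan was run. Probes past 1.5-fold numbered 3 with normexp, 6 with detection on all 4 arrays and 37 with no filter, and 7 passed 2-fold, against 12. The median member difference of 0.09 was 0.044 with detection on all 4 arrays, -0.10 with spike-in scaling (relative to -0.20 for all probes) and 0.024 to 0.12 with single arrays left out, lowest without control replicate 2. Pairs more than 1.5-fold apart numbered 4 with normexp, 7 with detection on all 4 arrays (7 also where both probes needed it) and 49 with no filter, against 14. With no filter, probes at background counted as well, so 37 and 49 come from more probes and pairs than 12 and 14. HOXA11-AS1 was at -0.16 and past the threshold under spike-in scaling (limma adjusted p 0.0329). MAST4-AS1 was not tested once bright spots were left out. Quantile normalization, scaling to detected probes, the value table and the patch moved no count by over 1.5 times; the cause of the other shifts was not tested.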
